A study of Mus musculus with 12 samples.

Results

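The genes described here are 8 factors of the formative and primed epiblast, namely the growth factor gene Fgf5 and the transcription factor genes Otx2, Pou3f1, Foxd3, Zic2, Zic5, Sall2 and Sox3. They were chosen by name, with earlier results of these data known. Each name was matched to the assembled loci whose transcripts equal or extend an annotated transcript of that gene, each had 1 locus, and all 8 were among the 17931 loci tested. Expression was measured by stranded poly(A) RNA sequencing in 12 libraries, 4 from undifferentiated mouse embryonic stem cells (ESC, day 0), 4 from Eomes-negative cells (Eo−, day 3) and 4 from Eomes-positive cells (Eo+, day 3). All libraries derive from 1 reporter line of C57BL/6 background, which carries EGFP within its own Eomes gene. Day 0 cells grew on mouse embryonic fibroblast feeders with leukemia inhibitory factor. Day 3 cells came from embryoid bodies made in hanging drops, were dissociated and were sorted by their EGFP signal. The replicates are numbered 1, 2, 5 and 6 in every group and come from 4 differentiation sets, and p-values measure the spread between these libraries.

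Naive ESCs correspond to the epiblast before implantation. After implantation the epiblast passes through a formative and then a primed state, in which naive factors are lost, a new set of transcription factors comes up, and the cells become able to respond to signals for the germ layers. Fgf5 and Otx2 are classical markers of this change. Cells of the posterior epiblast then enter the primitive streak and express Eomes, while anterior epiblast cells retain SoxB1 and POU factors and tend towards ectoderm.

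Locus totals ranged from 648413022 to 837308168 counts per library, so that 3 counts amounted to at most 0.00463 CPM (counts scaled to a common library size), and the lowest count of any of the 8 genes in any library was 2077. Precision was therefore set by the spread between libraries and not by counting. Eomes itself was 547 ± 100.7 CPM in Eo+, 142 ± 23.1 CPM in Eo− and 48.2 ± 9.15 CPM in ESC (SD, n = 4 each). The 8 fibroblast markers, which feeder cells express, summed to 95.4 to 239 CPM in ESC, 26.8 to 37.1 CPM in Eo− and 19.0 to 31.5 CPM in Eo+. Their means in ESC ran from 0.155 CPM for Lum to 47.9 CPM for Col1a2 and 66.2 CPM for Col1a1. Of 7 tested, 7 were lower in Eo+ than in ESC, beside 36.1% of all tested loci, and 5 were lower and 1 (Thy1) higher in Eo−, beside 31.3% and 30.9%. The part of feeder RNA in the ESC values was not tested. Visceral endoderm markers summed to 3.46 to 8.19 CPM in ESC, 2.69 to 11.6 CPM in Eo− and 3.52 to 59.8 CPM in Eo+, and their part in the results was not tested either. In such bulk libraries, fewer cells expressing a gene and less RNA of it per cell cannot be told apart.

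All 8 genes were higher in Eo− than in ESC, as were 30.9% of all tested loci. In Eo+ 5 of them were higher than in ESC, beside 35.8% of loci, and Pou3f1, Foxd3 and Sox3 were lower, beside 36.1%. The label of formative and primed genes matched the direction from ESC for all 8 genes in Eo− and for 5 in Eo+. The genes were chosen with earlier results of these data known, so this match is a description and no test of the label. All were already detected in ESC, at a mean of 3.29 to 11.9 FPKM (CPM divided by the exon length in kilobases). Over the same libraries 11 of 11 naive pluripotency genes were lower in Eo− than in ESC and 10 of 11 in Eo+, beside 31.3% and 36.1% of loci, among them Zfp42, which fell by 6.85 ± 0.20 (SE) on the log2 scale in Eo+.

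Promoter sequences are shown for the members with a window in the RefSeq promoter table used here (GRCm38). Pou3f1, Zic2 and Sox3 had none, so the sequences cannot compare the groups of members that move together. The table gave 9 windows for 5 of the 8 genes, which are 4 for Otx2, 2 for Sall2 and 1 each for Fgf5, Foxd3 and Zic5. Each window holds 250 bases before and 50 bases after an annotated start. The windows below are written 5′ to 3′ on the strand of the gene, and capitals mark the motifs searched on either strand.
Fgf5, chr5:98253934-98254233, plus strand: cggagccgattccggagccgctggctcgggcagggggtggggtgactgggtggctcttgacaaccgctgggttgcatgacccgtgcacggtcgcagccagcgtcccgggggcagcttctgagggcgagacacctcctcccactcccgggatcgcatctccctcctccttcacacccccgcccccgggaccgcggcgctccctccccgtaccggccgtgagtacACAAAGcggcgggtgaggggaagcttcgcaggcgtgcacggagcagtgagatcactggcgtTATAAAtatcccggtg
Otx2, outermost window, chr14:48667595-48667894, minus strand: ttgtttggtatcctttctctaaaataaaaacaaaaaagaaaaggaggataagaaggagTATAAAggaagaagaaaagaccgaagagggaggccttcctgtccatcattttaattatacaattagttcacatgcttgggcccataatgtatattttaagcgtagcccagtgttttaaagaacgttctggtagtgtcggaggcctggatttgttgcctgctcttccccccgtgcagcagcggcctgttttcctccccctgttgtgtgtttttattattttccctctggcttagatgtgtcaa
Otx2, inner window, chr14:48665060-48665359, minus strand: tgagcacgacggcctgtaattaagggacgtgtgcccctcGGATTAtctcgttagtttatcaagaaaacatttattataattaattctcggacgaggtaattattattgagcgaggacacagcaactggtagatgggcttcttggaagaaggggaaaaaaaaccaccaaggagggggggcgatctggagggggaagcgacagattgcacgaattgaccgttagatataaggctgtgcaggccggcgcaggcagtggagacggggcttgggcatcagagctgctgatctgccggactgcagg
Sall2, outer window, chr14:52328621-52328920, minus strand: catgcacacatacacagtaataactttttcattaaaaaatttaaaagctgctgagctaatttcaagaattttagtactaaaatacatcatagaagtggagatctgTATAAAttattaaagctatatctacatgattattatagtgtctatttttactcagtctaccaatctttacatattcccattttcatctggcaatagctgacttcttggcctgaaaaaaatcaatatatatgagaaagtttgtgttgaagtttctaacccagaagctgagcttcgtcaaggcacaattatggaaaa
Sall2, inner window, chr14:52316274-52316573, minus strand: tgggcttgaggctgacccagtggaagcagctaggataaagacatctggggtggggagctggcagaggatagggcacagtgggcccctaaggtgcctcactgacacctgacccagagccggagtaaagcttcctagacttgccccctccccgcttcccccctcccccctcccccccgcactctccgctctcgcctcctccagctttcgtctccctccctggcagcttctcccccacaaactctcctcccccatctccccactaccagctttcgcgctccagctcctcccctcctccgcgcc
Foxd3, chr4:99656049-99656348, plus strand: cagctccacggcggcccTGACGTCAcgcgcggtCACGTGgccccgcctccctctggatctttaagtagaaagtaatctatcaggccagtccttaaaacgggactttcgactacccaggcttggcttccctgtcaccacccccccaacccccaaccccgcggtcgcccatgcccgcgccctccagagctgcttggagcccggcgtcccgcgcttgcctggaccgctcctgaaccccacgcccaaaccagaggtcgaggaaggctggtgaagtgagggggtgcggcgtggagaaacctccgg
Zic5, chr14:122465609-122465908, minus strand: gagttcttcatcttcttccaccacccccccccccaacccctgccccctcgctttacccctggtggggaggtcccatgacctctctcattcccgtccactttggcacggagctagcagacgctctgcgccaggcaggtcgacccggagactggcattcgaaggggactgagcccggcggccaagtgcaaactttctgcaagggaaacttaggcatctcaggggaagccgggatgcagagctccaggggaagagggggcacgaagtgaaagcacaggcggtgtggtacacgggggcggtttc

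The motifs were TATAAA (the TATA box, in 13.6% of all 32851 promoter windows of this length), TAATCC (bound by OTX homeodomains, 7.06%), ATTTGCAT (the octamer of POU factors, 1.74%), ACAAAG (a core of SOX sites, 18.7%), TGACGTCA (1.79%) and CACGTG (the E-box, 7.15%). In the Fgf5 window ACAAAG began 27 bases before and TATAAA 34 bases after the start. TATAAA also began 192 bases before the outermost Otx2 start and 145 bases before the outer Sall2 start. Whether any of these TATAAA sites acts as a TATA box was not tested. The inner Otx2 window held TAATCC, read on the other strand, 211 bases before the start. Foxd3 held TGACGTCA and CACGTG at 233 and 217 bases before its start. The octamer was found in 0 of the 9 windows. Base composition differed widely among the windows. GC content was 68.3% for Fgf5, 65.7% for Foxd3 and 62.7% for Zic5, against a median of 52.7% over all windows. It was 41.7%, 47.7%, 51.0% and 53.7% in the Otx2 windows, from the outermost inwards. In the outer and inner Sall2 windows it was 30.3% and 65.0%. The counts used here are summed per locus and do not say which start was used.

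Fgf5, the only secreted ligand of the group, had the largest rise in Eo+ and a rise close to that of Otx2 in Eo−. Fgf5 (XLOC_053425, ENSMUSG00000029337) is a plus-strand gene of chromosome 5 (mm10), with an assembled extent from 98253728 to 98475741. Its level was 9.77, 11.7, 28.9 and 10.5 CPM in ESC replicates 1, 2, 5 and 6, 97.1, 126, 132 and 112 CPM in Eo−, and 145, 177, 271 and 163 CPM in Eo+. The 3 groups did not overlap, and replicate 5 was highest in each of them. The rise from ESC was 13.4-fold in Eo+ (log2 fold change 3.74 ± 0.29, adjusted p = 7.2e-08) and 8.45-fold in Eo− (3.08 ± 0.29, adjusted p = 1.2e-06). Fgf5 was 1.59-fold higher in Eo+ than in Eo− (0.66 ± 0.22, adjusted p = 0.022). That last call was lost with edgeR's quasi-likelihood test (adjusted p = 0.079), with DESeq2 (adjusted p = 0.13), without Eo− replicate 1 (0.59, adjusted p = 0.055) and without Eo+ replicate 5 (0.48, adjusted p = 0.064). With the replicate number as a block in the 8 sorted libraries, the difference was 0.67 with an adjusted p of 6.8e-04.

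**Figure D1:**
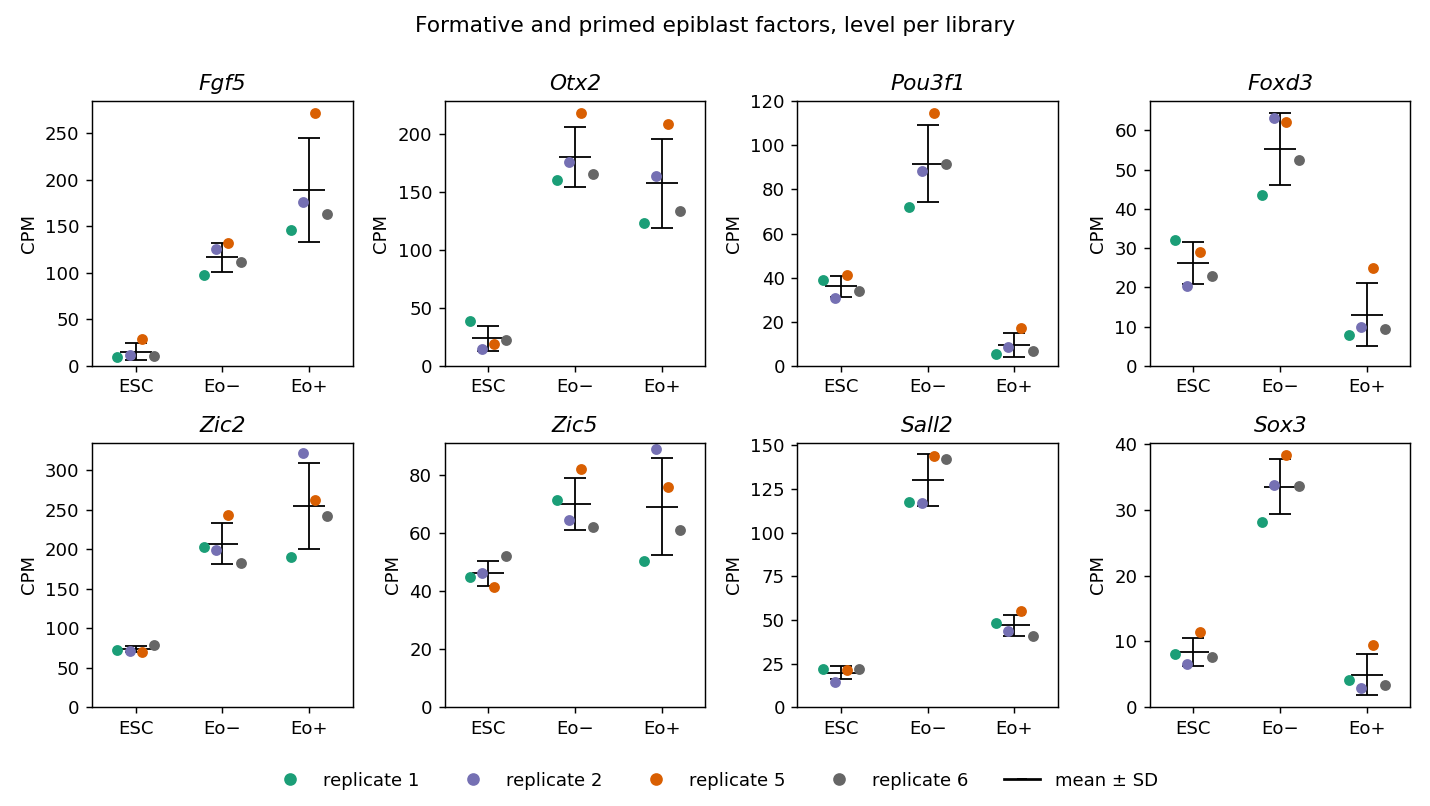
Level of each of the 8 genes in CPM (vertical axes, linear, from 0) in the 4 ESC, 4 Eo− and 4 Eo+ libraries. Points are libraries coloured by replicate number, and black bars are the mean ± SD. The Eo− libraries lie above the ESC libraries for every gene, whereas the Eo+ libraries of Pou3f1 (5.16 to 17.2 CPM) lie below both other groups.

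Otx2, a homeodomain factor that works with Oct4 on enhancers of the post-implantation epiblast and later patterns the forebrain, rose to a similar extent in both fractions. Otx2 (XLOC_023234, ENSMUSG00000021848) lies on the minus strand of chromosome 14, from 48653748 to 48667809. Its level was 39.0, 14.9, 18.6 and 21.9 CPM in ESC, 161, 176, 218 and 166 CPM in Eo−, and 123, 164, 209 and 134 CPM in Eo+. Every day 3 library exceeded every ESC library, and the fractions overlapped. The rise was 6.94-fold in Eo+ (2.79 ± 0.24, adjusted p = 2.1e-07) and 8.05-fold in Eo− (3.01 ± 0.24, adjusted p = 2.8e-07). Eo+ and Eo− differed by −0.21 ± 0.20 (95% interval −0.64 to 0.21, adjusted p = 0.40). Otx2 was lower in Eo+ than in Eo− within each of the 4 replicate numbers, and a fit of the 8 sorted libraries with the number as a block called this difference (−0.21, adjusted p = 0.030).

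Zic2 and Zic5 encode zinc finger proteins and lie next to each other on chromosome 14. Zic2 (XLOC_022556, ENSMUSG00000061524, plus strand, 122474334 to 122482035) rose 3.42-fold in Eo+ (1.78 ± 0.14, adjusted p = 7.1e-08) and 2.82-fold in Eo− (1.49 ± 0.14, adjusted p = 9.1e-07). Its level was 72.4, 71.7, 70.1 and 78.7 CPM in ESC, 202, 199, 244 and 183 CPM in Eo−, and 191, 323, 263 and 243 CPM in Eo+. The ESC libraries lay within 1.12-fold of each other, the closest of any group among the 8 genes. Zic5 (XLOC_024152, ENSMUSG00000041703, minus strand, 122456624 to 122465677) was 44.9, 46.3, 41.3 and 51.9 CPM in ESC, 71.3, 64.3, 82.0 and 61.9 CPM in Eo−, and 50.5, 88.7, 75.7 and 61.0 CPM in Eo+. It rose 1.47-fold in Eo+ (0.56 ± 0.15, adjusted p = 5.0e-03) and 1.51-fold in Eo− (0.60 ± 0.15, adjusted p = 3.8e-03), the smallest rises among the 8 genes in Eo−, and Eo+ replicate 1 lay within the ESC range. Neither gene passed the test between the fractions. The difference of Zic2 was 0.28 ± 0.13 (95% interval 0.0028 to 0.56, adjusted p = 0.089) and that of Zic5 −0.04 ± 0.15 (−0.36 to 0.28, adjusted p = 0.84). Zic2 was called when Eo− replicate 5 (0.36, adjusted p = 0.045) or Eo+ replicate 1 (0.42, adjusted p = 6.5e-03) was left out.

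Sall2, a zinc finger factor of the spalt family, rose in both fractions but much more in Eo−. Sall2 (XLOC_023347, ENSMUSG00000049532) lies on the minus strand of chromosome 14, from 52311172 to 52328762. It measured 21.7, 14.4, 21.6 and 21.9 CPM in ESC, 118, 117, 144 and 142 CPM in Eo−, and 48.0, 43.7, 54.9 and 41.1 CPM in Eo+, with no overlap between any groups. The rise was 6.60-fold in Eo− (2.72 ± 0.14, adjusted p = 7.0e-09) and 2.38-fold in Eo+ (1.25 ± 0.15, adjusted p = 3.5e-06), and Eo+ was 2.77-fold lower than Eo− (−1.47 ± 0.12, adjusted p = 1.1e-06).

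Pou3f1, Foxd3 and Sox3 moved in opposite directions in the sorted fractions. Pou3f1 encodes a POU factor also known as Oct6, Foxd3 a forkhead factor needed for the maintenance of the epiblast, and Sox3 an HMG box factor of the SoxB1 group with Sox1 and Sox2. All 3 are genes of a single exon in the reference annotation, and the other members have at least 2 exons in their longest reference transcript. This shared structure was seen after the values were known.

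Pou3f1 (XLOC_048808, ENSMUSG00000090125, chromosome 4, plus strand, 124656807 to 124660655) was 39.1, 30.7, 41.1 and 33.8 CPM in ESC, 72.1, 88.6, 115 and 91.6 CPM in Eo−, and 5.16, 8.51, 17.2 and 6.92 CPM in Eo+. The 3 groups were fully separate. It rose 2.51-fold in Eo− (1.33 ± 0.20, adjusted p = 5.6e-05) and was 4.26-fold lower in Eo+ than in ESC (−2.09 ± 0.27, adjusted p = 1.0e-05). The 10.7-fold difference between Eo− and Eo+ (−3.42 ± 0.26, adjusted p = 6.4e-07) was the largest of the group. Foxd3 (XLOC_048365, ENSMUSG00000067261, chromosome 4, plus strand, 99655507 to 99658840) was 32.1, 20.4, 29.1 and 22.9 CPM in ESC, 43.6, 63.1, 62.2 and 52.4 CPM in Eo−, and 7.90, 10.0, 25.0 and 9.34 CPM in Eo+. Only Eo+ replicate 5 reached the ESC range. Foxd3 rose 2.11-fold in Eo− (1.08 ± 0.23, adjusted p = 1.0e-03), fell 2.23-fold in Eo+ (−1.16 ± 0.28, adjusted p = 2.3e-03) and was 4.71-fold lower in Eo+ than in Eo− (−2.23 ± 0.27, adjusted p = 2.2e-05).

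Sox3 (XLOC_077299, ENSMUSG00000045179, X chromosome, minus strand, 60891342 to 60893899) had the lowest levels of the group. It measured 8.10, 6.51, 11.4 and 7.67 CPM in ESC, 28.2, 33.8, 38.4 and 33.6 CPM in Eo−, and 4.14, 2.88, 9.53 and 3.36 CPM in Eo+. As with Foxd3, only Eo+ replicate 5 lay within the ESC range. Sox3 rose 4.02-fold in Eo− (2.01 ± 0.23, adjusted p = 6.4e-06), was 1.87-fold lower in Eo+ than in ESC (−0.90 ± 0.30, adjusted p = 0.015) and 7.53-fold lower in Eo+ than in Eo− (−2.91 ± 0.26, adjusted p = 2.2e-06). The fall from ESC missed the threshold without Eo+ replicate 2 (−0.68, adjusted p = 0.061).

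**Figure D2:**
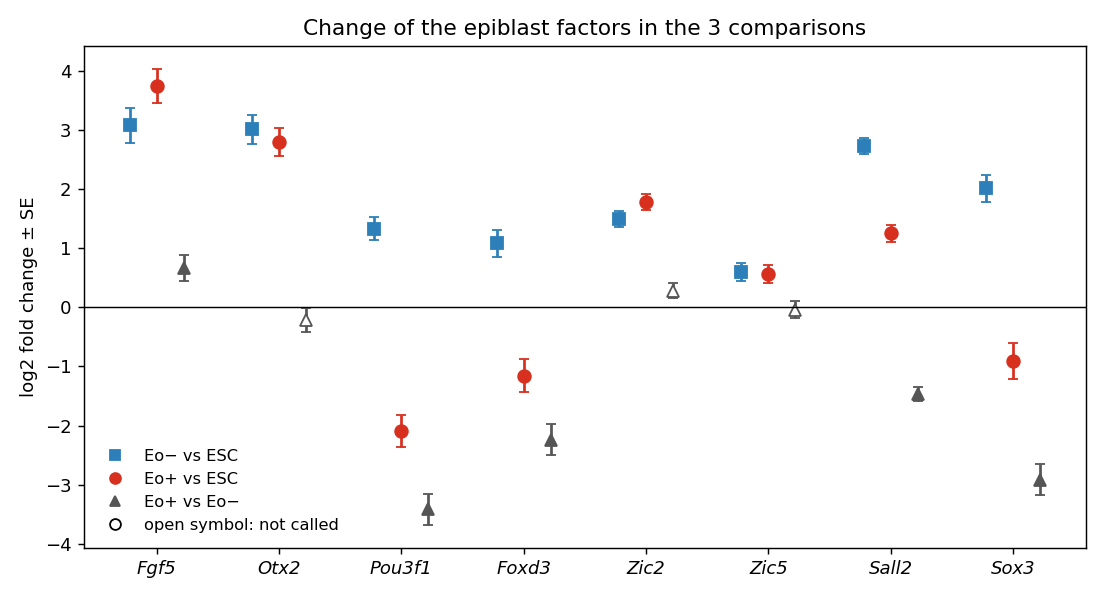
Log2 fold change ± SE of each gene (horizontal axis) for Eo− vs ESC, Eo+ vs ESC and Eo+ vs Eo− (vertical axis), from the limma fit of 12 libraries, where open symbols did not pass an adjusted p of 0.05. All 8 squares (Eo− vs ESC) lie above 0, at 0.60 to 3.08, whereas the circles (Eo+ vs ESC) of Pou3f1, Foxd3 and Sox3 lie below 0.

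These counts are read against how much of the transcriptome changed. Between Eo− and ESC 62.2% of all tested loci passed the test, with 30.9% higher and 31.3% lower in Eo−. Of the 8 genes 8 were higher and 0 lower, each without overlap of the groups, which 55.8% of all loci also showed. Between Eo+ and ESC 71.9% of loci passed, with 35.8% higher and 36.1% lower in Eo+, beside 5 and 3 of the 8 genes, and 5 of the 8 had no overlap against 64.5% of loci. Between Eo+ and Eo− 47.7% of loci passed, with 23.0% higher and 24.7% lower in Eo+. Here 1 gene (Fgf5) was higher, 4 (Pou3f1, Foxd3, Sall2 and Sox3) were lower and 3 did not pass, and 5 had no overlap against 45.9% of loci. Being higher in Eo− than in ESC and lower in Eo+ than in Eo−, as these 4 were, was seen for 6.08% of loci. The pattern of Pou3f1, Foxd3 and Sox3, higher in Eo− and lower in Eo+ than in ESC, was held by 1.14% of all loci, and the pattern of the other 5 genes, higher in both fractions, by 24.6%. Both comparisons with ESC share the ESC libraries. The median log2 fold change of the 8 genes was 1.75 for Eo− and 0.91 for Eo+ against ESC, beside 0.016 and 0.0025 over all tested loci. Between the fractions it was −0.84, beside −0.015.

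The order of the genes by level per exon length was compared within each group, as FPKM. In ESC Zic2 was highest at 11.9 ± 0.614 FPKM (SD, n = 4), above all libraries of the next gene, Pou3f1, at 9.40 ± 1.24 FPKM. The order went on with Zic5 (9.11), Foxd3 (7.83), Otx2 (6.58), Fgf5 (5.11), Sall2 (3.66) and Sox3 (3.29 FPKM), and neighbours in it overlapped. In Eo− Otx2 led at 50.2 ± 7.30 FPKM, clear of Fgf5 at 39.1 ± 5.22 FPKM, which overlapped with Zic2 at 33.6 ± 4.18 FPKM. Sall2 (23.9) and Pou3f1 (23.8 FPKM) were alike in level, and Foxd3 (16.6), Zic5 (13.8) and Sox3 (13.1 FPKM) followed. In Eo+ Fgf5 (63.4 ± 18.9), Otx2 (43.9 ± 10.7) and Zic2 (41.3 ± 8.86 FPKM) overlapped with their neighbours, and every library of these 3 was above every library of Zic5 (13.6 ± 3.31 FPKM). Below them came Sall2 (8.64), and then, separate from it, Foxd3 (3.92), Pou3f1 (2.45) and Sox3 (1.95 FPKM), whose ranges overlapped with their neighbours. The mean levels thus spanned 1.95 to 63.4 FPKM in Eo+, a wider span than the 3.29 to 11.9 FPKM of the ESC libraries.

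The ratio of Zic2 to Zic5 was examined because the assembled 5′ ends of these genes lie 8657 bp apart and point away from each other. Zic2 counts over Zic5 counts, a ratio that needs no scaling between libraries, were 1.61, 1.55, 1.70 and 1.52 in ESC, 2.84, 3.10, 2.97 and 2.96 in Eo−, and 3.78, 3.64, 3.48 and 3.98 in Eo+. The 3 groups did not overlap, and the spread within each was small beside the steps between them. Means were 1.59 ± 0.0798, 2.97 ± 0.106 and 3.72 ± 0.213 (SD, n = 4 each). These values are a description, since the ratio was chosen after the values were seen, and neither gene passed the test between the fractions on its own.

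**Figure D3:**
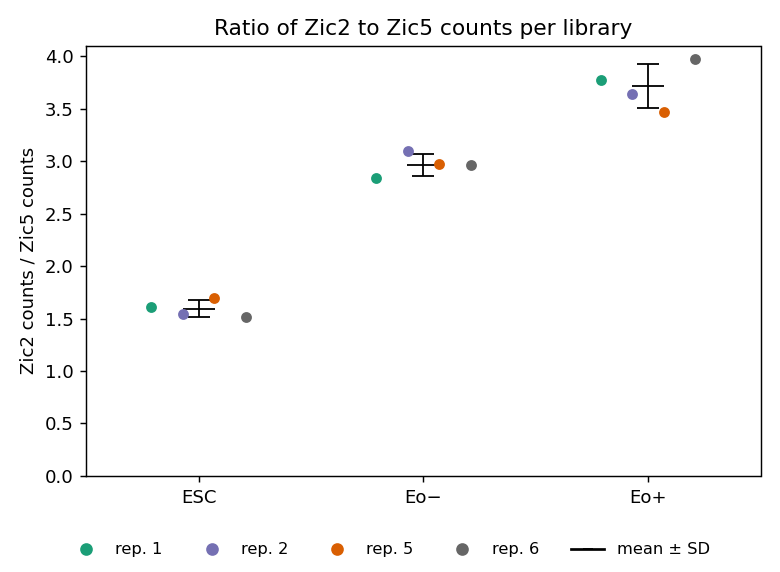
Ratio of Zic2 counts to Zic5 counts (vertical axis, linear, from 0) in each of the 12 libraries, coloured by replicate number, with the mean ± SD per group. The ESC libraries lie at 1.52 to 1.70, the Eo− libraries at 2.84 to 3.10 and the Eo+ libraries at 3.48 to 3.98.

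Annotated long noncoding RNAs (lncRNAs) lie on the strand opposite 5 of the genes, with a start near that of the gene or an overlap with it. They are Otx2os1 (opposite Otx2, 5′ ends 943 bp apart), Gm27247 (Pou3f1, 702 bp), Gm12688 (Foxd3, 2666 bp), 2610035F20Rik (Zic2, 865 bp) and Gm14662 (Sox3, 2017 bp). The counting took strand into account, and exons overlap by 2667 bases for Gm12688, 670 for Gm27247, 452 for 2610035F20Rik, 340 for Gm14662 and 0 for Otx2os1. All 5 lncRNAs were higher in Eo− than in ESC, beside 30.9% of all tested loci. In Eo+ vs ESC Otx2os1 and 2610035F20Rik were higher, whereas Gm27247 and Gm12688 were lower, beside 35.8% and 36.1% of loci, and Gm14662 did not pass (−0.74 ± 0.36, adjusted p = 0.076). In Eo+ vs Eo− Gm27247, Gm12688 and Gm14662 were lower, beside 24.7% of loci, and neither of the others passed.

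The lncRNAs of the genes that fell in Eo+ had the same order of group means as their partners. Gm27247 measured 0.580, 0.446, 0.504 and 0.612 CPM in ESC, 1.22, 1.75, 2.19 and 1.63 CPM in Eo−, and 0.226, 0.240, 0.591 and 0.267 CPM in Eo+, with a difference of −2.45 ± 0.29 between the fractions (adjusted p = 1.8e-05). Gm12688 was 9.32, 6.58, 9.50 and 7.40 CPM in ESC, 12.5, 16.6, 17.8 and 15.5 CPM in Eo−, and 2.38, 2.91, 7.83 and 2.75 CPM in Eo+ (−2.14 ± 0.27, adjusted p = 3.3e-05). Replicate 5 was the highest Eo+ library of both, as it was of Pou3f1 and Foxd3. Gm14662 fell from 0.573 to 0.822 CPM in Eo− to 0.0647 to 0.148 CPM in Eo+ (−2.71 ± 0.31, adjusted p = 1.7e-05). Its ESC libraries, at 0.122 to 0.268 CPM, overlapped with those of Eo+.

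Relative to the partner gene, the lncRNAs were scarce except for Gm12688. Gm12688 held between 26.3% and 32.6% of the Foxd3 CPM in all 12 libraries, so that it moved with Foxd3 at a nearly fixed ratio. This is the lncRNA with the longest overlap. The part of this overlap in the ratio was not tested. For Gm27247 the share was 1.23% to 1.98% of Pou3f1 in ESC and Eo− and 2.82% to 4.39% in Eo+. Otx2os1 held 0.301% to 1.17% of Otx2, 2610035F20Rik 0.696% to 1.45% of Zic2 and Gm14662 1.33% to 3.58% of Sox3.

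**Figure D4:**
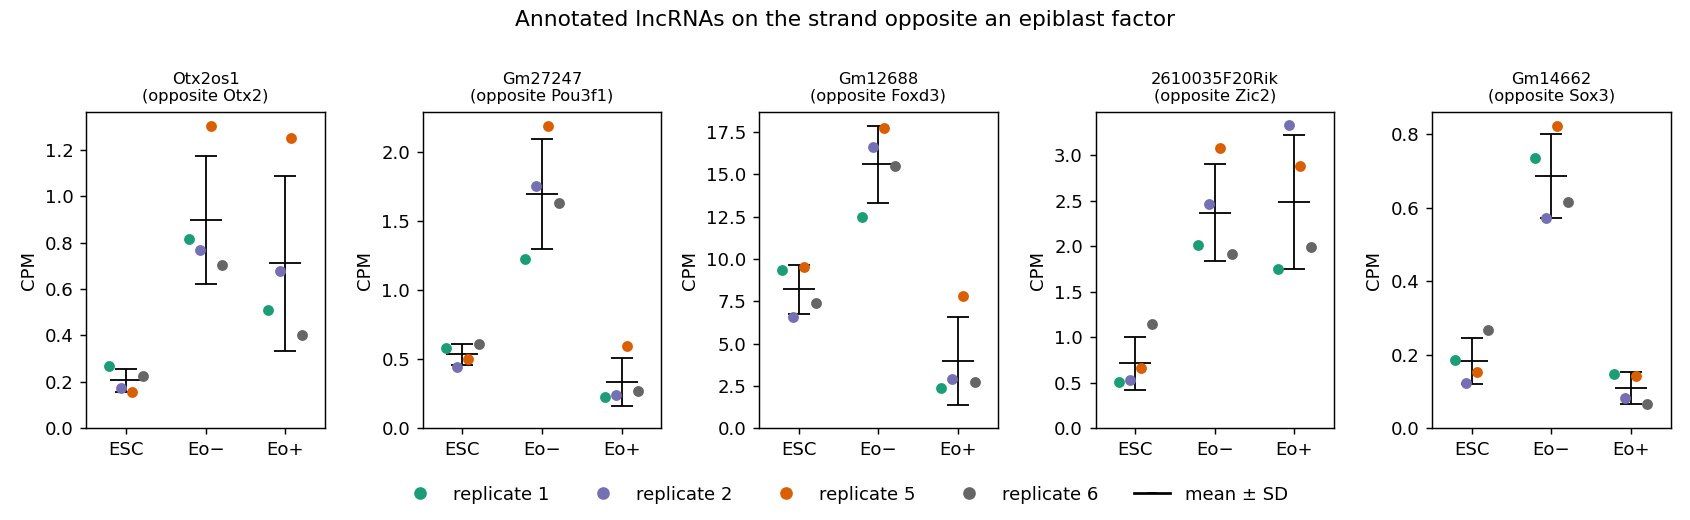
Level in CPM (vertical axes, linear, from 0, scaled per panel) of the 5 annotated lncRNAs opposite Otx2, Pou3f1, Foxd3, Zic2 and Sox3 in each library, with the mean ± SD per group. Gm27247, Gm12688 and Gm14662 were highest in Eo− and lowest on average in Eo+, whereas Otx2os1 and 2610035F20Rik overlapped between the fractions.

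The Fgf5 locus was examined because its assembled extent was much longer than the annotated gene. Of 10 assembled transcripts 6 ended past the annotated end at 98277030, and the locus ran 198.711 kb beyond it, but only 22 of its 2979 exonic bases lay there. At the other end it began 456 bp before the annotated start. Between Fgf5 and the next annotated gene on the same strand, 1700007G11Rik, were 13 unnamed assembled loci, and these summed to 0.140 ± 0.0789 CPM in ESC, 1.10 ± 0.152 CPM in Eo− and 1.28 ± 0.699 CPM in Eo+. The neighbour 1700007G11Rik, which shared 0 exonic bases with Fgf5, changed much as Fgf5 did. It measured 0.205 ± 0.0578 CPM in ESC, 1.45 ± 0.255 CPM in Eo− and 2.80 ± 0.642 CPM in Eo+, which is a rise from ESC of 3.79 ± 0.27 in Eo+ and 2.85 ± 0.28 in Eo− on the log2 scale (adjusted p = 3.2e-08 and 1.4e-06). Eo+ exceeded Eo− by 0.94 ± 0.20 (adjusted p = 1.4e-03).

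Of 14 paralogs of the 8 genes 8 were tested. From ESC to Eo− 2 rose and 4 fell, beside 30.9% and 31.3% of all tested loci, and from ESC to Eo+ 3 rose and 3 fell, beside 35.8% and 36.1%. Fgf4, the main FGF ligand of naive cells, was 112 ± 24.0 CPM in ESC and 10.3 ± 6.12 CPM in Eo+ and fell by 3.62 ± 0.30 on the log2 scale, opposite to Fgf5. Sall3 rose in both fractions (2.16 ± 0.29 in Eo+ and 1.31 ± 0.30 in Eo−), whereas Sall1 did not pass in Eo+ (0.09 ± 0.15) and fell slightly in Eo− (−0.40 ± 0.15). The SoxB1 gene Sox2, whose locus also holds the lncRNA Sox2ot, fell by 1.25 ± 0.16 in Eo− and by 3.95 ± 0.20 in Eo+. Sox2 and Sox3 thus changed in opposite directions in Eo− and both fell in Eo+. The 6 paralogs that were not tested, Fgf6, Crx, Pou3f2, Pou3f3, Zic1 and Zic4, had means of at most 0.547 CPM in any group.

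Of 15 other genes linked to the formative and primed epiblast 9 rose and 3 fell from ESC to Eo−, beside 30.9% and 31.3% of all tested loci. From ESC to Eo+ 7 rose and 5 fell, beside 35.8% and 36.1%. Eo+ exceeded Eo− for 5 of them and was lower for 8, beside 23.0% and 24.7%. Dnmt3b, a de novo DNA methyltransferase, rose by 2.12 ± 0.14 in Eo− and by 0.65 ± 0.15 in Eo+, and its partner Dnmt3a rose by 1.14 ± 0.12 in Eo− only, with −0.14 ± 0.13 in Eo+ (the fractions differed by −1.28 ± 0.12, adjusted p = 3.9e-06). Utf1, a chromatin factor of pluripotent cells, was 299 CPM in Eo−, 298 CPM in ESC and 12.4 CPM in Eo+. Sox11 and Tead2 rose in both fractions, by 1.56 ± 0.11 and 1.27 ± 0.08 in Eo− and by 1.84 ± 0.11 and 1.65 ± 0.08 in Eo+. Cdh2, the N-cadherin of migrating mesoderm, rose by 3.56 ± 0.28 in Eo+ and by 0.79 ± 0.30 in Eo−. Tcf15 fell in both, by 3.32 ± 0.17 in Eo+ and 1.47 ± 0.13 in Eo−. The median change of the list from ESC was 0.54 for Eo− and 0.09 for Eo+, beside 1.75 and 0.91 for the 8 genes.

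Of 16 genes of FGF signalling 5 rose and 8 fell from ESC to Eo−, beside 30.9% and 31.3% of all tested loci. From ESC to Eo+ 6 rose and 6 fell, beside 35.8% and 36.1%, so that the shares that rose were near those of all loci. Eo+ exceeded Eo− for 8 of them and was lower for 4, beside 23.0% and 24.7%. Among ligands, Fgf8 rose with Fgf5 (2.05 ± 0.30 in Eo+ and 1.15 ± 0.31 in Eo−), as did Fgf15 (1.45 ± 0.28 and 0.75 ± 0.29). The receptor gene Fgfr1 rose by 0.95 ± 0.12 in Eo+ and 0.64 ± 0.12 in Eo−, whereas the locus of Fgfr2, which assembly had joined with Ctbp2, fell by 1.13 ± 0.07 and 0.45 ± 0.07. Feedback and response genes were also divided. Dusp4 rose by 1.58 ± 0.21 in Eo+ and 0.85 ± 0.21 in Eo−, while Spry4 fell by 0.99 ± 0.16 and 1.45 ± 0.16 and Etv5 by 1.74 ± 0.12 and 0.78 ± 0.11.

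Of the 4 core pluripotency genes, 2 fell and 2 did not pass in Eo−, where 31.3% of all tested loci fell, and 3 fell and 1 rose in Eo+, beside 36.1% and 35.8% of loci. Pou5f1 (Oct4) did not pass in Eo− (−0.27 ± 0.18, adjusted p = 0.20) and fell by 1.31 ± 0.18 in Eo+, and Nanog fell by 1.41 ± 0.18 and 1.98 ± 0.19. Sall4, a relative of Sall2, did not pass in Eo− (−0.08 ± 0.08, adjusted p = 0.41) and rose by 0.32 ± 0.08 in Eo+ (adjusted p = 2.8e-03). Of the 7 genes of the primitive streak and mesendoderm all 7 rose in Eo+ and 5 in Eo−, beside 35.8% and 30.9% of loci. This list includes Eomes, whose reporter was used to sort the fractions, so its rise in Eo+ is no separate result. Of 6 neuroectoderm genes tested, 1 (Six3, at 1.79 CPM in Eo+) rose and 3 fell in each fraction, beside the same shares of loci that rose and 36.1% (Eo+) and 31.3% (Eo−) that fell. Sox1 and Pax6 were at or below 0.595 CPM on average in both fractions. Tubb3 was matched to no locus.

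In both sorted fractions replicate 5 was the highest library for most of the 8 genes. It was highest for 7 of 8 in Eo− and for 6 of 8 in Eo+. In ESC it was highest for 3 of 8, as was replicate 6, and lowest for 2. In Eo+ its deviation from the group mean was 1.06 for Foxd3, 1.02 for Sox3 and 0.97 for Pou3f1 on the log2 scale, against 0.07 for Zic2. The same Eo+ library was highest for Sox2 (43.3 CPM against 19.1 to 20.4 CPM), Utf1 (27.3 against 6.69 to 8.61 CPM) and Nanog (181 against 93.8 to 121 CPM), and lowest for the mesoderm gene Mesp1 (50.6 against 92.8 to 221 CPM). It was also lowest for Mixl1 (221.7 against 274.1 to 488.5 CPM) and, by a small margin, for Eomes (463.1 against 463.5 to 665.6 CPM), but highest for Foxa2 (169.6 against 93.9 to 104.9 CPM) and within the range of the others for T and Lhx1. Eo− replicate 5 was lowest for T (114 against 237 to 323 CPM), Mixl1 (6.93 against 21.9 to 26.9 CPM) and Mesp1 (1.43 against 6.29 to 9.34 CPM). ESC replicate 5 was instead highest for T (203 against 43.4 to 99.3 CPM) and Mixl1 (28.5 against 4.11 to 19.3 CPM). This ESC library was also highest for Lhx1, Foxa2 and Mesp1, and within the range of the others for Eomes. The part of these differences between libraries in the results was not tested beyond leaving libraries out. Without replicate 5 in every group, an alternative chosen after seeing the data, 8 genes were again higher in Eo−, 5 higher and 3 lower in Eo+ vs ESC, and 1 higher and 4 lower in Eo+ vs Eo−. The fall in Eo+ was then −2.36 for Pou3f1, −1.46 for Foxd3 and −1.11 for Sox3 relative to ESC.

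**Figure D5:**
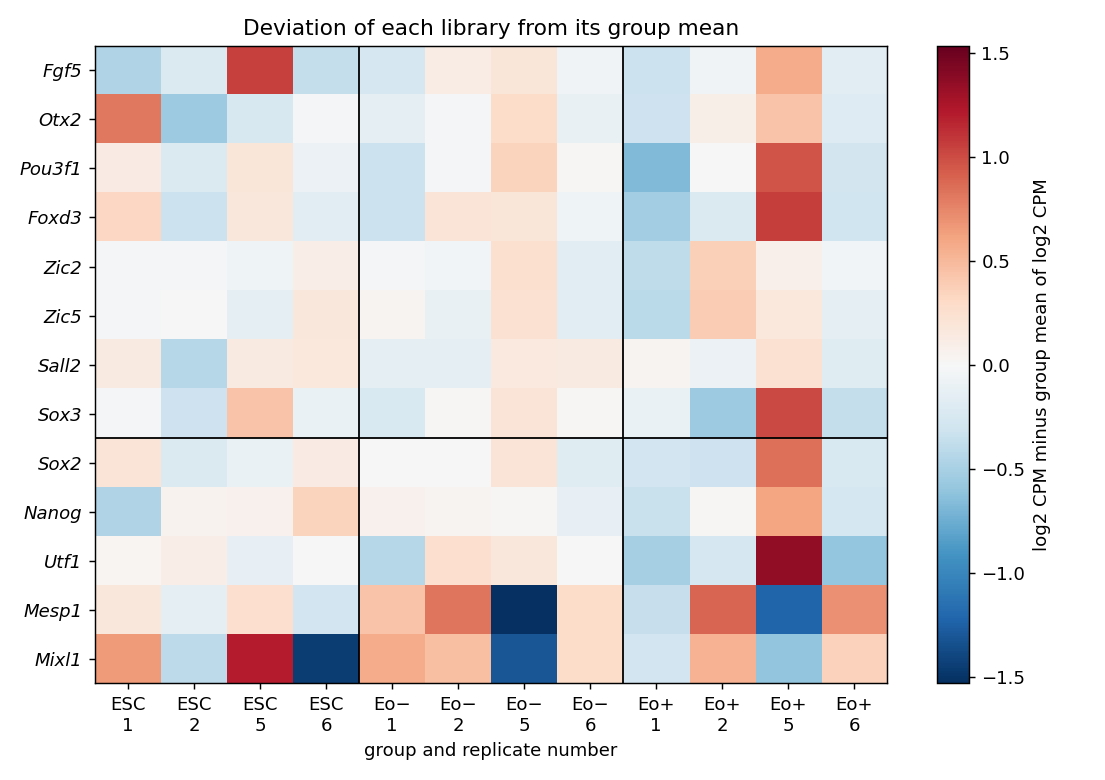
Log2 CPM of each library minus the mean of log2 CPM of its group (colour scale) for the 8 genes (above the line) and for Sox2, Nanog, Utf1, Mesp1 and Mixl1 (below it), with columns for the 12 libraries. In Eo+ replicate 5 Pou3f1, Foxd3 and Sox3 deviate by 0.97 to 1.06 and Mesp1 by −1.23.

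Across the 12 libraries the log2 levels of Pou3f1, Foxd3 and Sox3 moved together, as did those of Fgf5, Otx2 and Zic2. Correlations were 0.976 for Pou3f1 with Foxd3, 0.951 for Foxd3 with Sox3 and 0.925 for Pou3f1 with Sox3, and 0.950 for Fgf5 with Zic2, 0.944 for Otx2 with Zic2 and 0.911 for Fgf5 with Otx2. Between these sets they ranged from −0.223 (Fgf5 with Pou3f1) to 0.299 (Otx2 with Sox3). Zic5 had 0.752 to 0.887 with Fgf5, Otx2 and Zic2, and 0.0433 to 0.216 with Pou3f1, Foxd3 and Sox3. Sall2 was between the sets, with 0.717 to 0.859 for Fgf5, Zic2 and Otx2, and 0.441 to 0.709 for Pou3f1, Foxd3 and Sox3. Sall2 and Zic5 had 0.686 with each other. These values describe 12 libraries in 3 groups and mostly follow the group means. Among 11835 protein-coding genes of at least 1 CPM in a group, the gene most like each member was Rem2 for Fgf5 (r = 0.990), Lrrc3 for Otx2 (0.985), Slmo1 for Pou3f1 (0.987), Pou3f1 for Foxd3 (0.976), Zgrf1 for Zic2 (0.989), Nr6a1 for Zic5 (0.924), Slc35d3 for Sall2 (0.989) and Ptchd1 for Sox3 (0.988). Foxd3 was the only member whose closest gene was another member. Slc35d3 went from 0.676 CPM in ESC to 12.7 CPM in Eo− and 3.22 CPM in Eo+, in the order of Sall2, and Ptchd1 from 1.35 to 4.36 and 0.733 CPM, in the order of Sox3. Nr6a1, an orphan nuclear receptor gene, was 81.8 CPM in ESC, 128 CPM in Eo− and 132 CPM in Eo+, beside 46.1, 69.8 and 69.0 CPM for Zic5.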

How the data were processed

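Poly(A) RNA was sequenced in 12 libraries (ESC, Eo− and Eo+, n = 4 each). According to the methods and the processing notes of the submitters, the authors mapped stranded paired reads to mm10 with STAR, assembled transcripts with Cufflinks 2.2.1, merged them with the Ensembl annotation and counted reads per locus with HTSeq 0.6.1, strand-aware. The deposited raw table holds these counts for 80012 loci, and 0 columns belong to other samples. A deposited normalized signal, scaled per library by the authors, was used only for an alternative. HTSeq set aside 22.4% to 26.2% of alignments as not unique, so near-identical copies went uncounted.

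Loci were tested when their mean FPKM, computed here from counts and exon length, exceeded 0.1 in a group and they were protein-coding, annotated lncRNA or multi-exon non-annotated lncRNA loci by GENCODE release 21 biotypes. Group means were fitted with limma 3.58.1 (voom, TMM from edgeR 4.0.16, R 4.3.3), two-sided with 13.5 degrees of freedom, Benjamini-Hochberg adjusted over 17931 loci and called at 0.05. Every adjusted p of a gene comes from this fit unless another tool is named. CPM use TMM-scaled library sizes. Fold changes carry their SE. The fit was also run on simulated counts with 200 changed loci, and the outcome is not given here.

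Same-numbered Eo+ and Eo− libraries deviated together over all loci (correlations 0.312 to 0.634), so the numbers pair the sorted libraries, taken to come from shared differentiation sets. The reported fit has no block, after the study's methods, and blocked values are given where they change a call. Between ESC and Eo− the same-numbered correlations were 0.253 and 0.430 for numbers 1 and 2, but −0.125 and −0.020 for 5 and 6. Eo− number 5 with ESC number 6 had 0.227, and Eo− number 6 with ESC number 5 had 0.220. Between ESC and Eo+ the same-numbered values were −0.096 to 0.135. Whether ESC numbers mark the same sets as those of the fractions was not tested. Alternatives were edgeR's quasi-likelihood test, DESeq2 1.42.0, other scalings and filters, a 2-fold minimum, fits of 2 groups, a replicate block and leaving libraries out. The members and lists were chosen with earlier results of these data known. One paralog is not reported here. Genes named are the 8 members, examples from these lists, neighbouring loci within 5 kb or on the opposite strand, and the most similar gene per member by Pearson correlation of log2 CPM. Promoter windows are RefSeq's on GRCm38.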

Additional observations from a re-analysis of the deposited data

Results flagged for a closer look

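Within groups of 4 libraries, 39 sets of values were examined with Dixon's criterion for a library far from the other 3, which chance gives in about 1 of 20 sets. There were 5 such sets. Fgf5 was 28.9 CPM in ESC replicate 5, and Foxd3 was 25.0 CPM in Eo+ replicate 5. The same Eo+ library was highest for the opposite-strand lncRNAs Gm12688 (7.83 CPM) and Gm27247 (0.591 CPM). Sall2 was 14.4 CPM in ESC replicate 2, its lowest value. Leaving out each library in turn changed the call of neither Foxd3 nor Sall2 in any comparison, and that of Fgf5 in Eo+ vs Eo− only.

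For 5 genes the changes from ESC differed between the fractions by the direct test of Eo+ vs Eo− in limma. The difference was −3.42 for Pou3f1 (adjusted p = 6.4e-07), −2.91 for Sox3 (adjusted p = 2.2e-06) and −2.23 for Foxd3 (adjusted p = 2.2e-05), each lower in 4 of 4 Eo+ libraries than in any Eo− library. It was −1.47 for Sall2 (adjusted p = 1.1e-06) and 0.66 for Fgf5 (adjusted p = 0.022), and their groups did not overlap either.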

How the results depend on the processing

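Of 248 fold changes of the 8 genes recomputed under the alternatives, 241 kept their direction and side of the threshold, 6 lost the call and 1 gained it. Of 288 with a library left out, 280 kept both. The number of genes higher in Eo+ than in Eo−, 1 in the reported fit, was 0 with edgeR, 0 with DESeq2 and 0 with a 2-fold minimum, and 0 to 2 when a library was left out. The difference of Zic5 between the fractions ranged from −0.17 to 0.11 when a library was left out and changed sign with Eo− replicate 5 (0.037), Eo+ replicate 1 (0.11) or Eo+ replicate 6 (0.010) left out, all with adjusted p of 0.525 or more. The cause was not tested. With the replicate block in all 12 libraries the counts stayed at 8 higher in Eo− vs ESC, 5 higher and 3 lower in Eo+ vs ESC, and 1 higher and 4 lower in Eo+ vs Eo−. With the replicate block in the 8 sorted libraries 5 genes were lower, Otx2 in addition, and no other call changed. Levels moved by less than 1 SD in 48 of 48 cases with other scalings. With 4 libraries a group, spread between libraries and not depth limits the small differences.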
